A study of Rattus norvegicus with 20 samples.

Results

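The miR-29 family of the rat was followed in small RNA libraries of the adBNST, the anterodorsal part of the bed nucleus of stria terminalis, a limbic forebrain region involved in anxiety-like behavior. Members were taken by name: the guide strands rno-miR-29a-3p, rno-miR-29b-3p, and rno-miR-29c-3p, and the opposite strands rno-miR-29a-5p and rno-miR-29c-5p, that is 5 of the 617 miRNAs with reads. All 5 were among the 500 miRNAs that reached 10 counts in 5 or more libraries and were tested. The libraries came from 20 Sprague-Dawley rats, 5 each of group housed (GH) males, socially isolated (SI) males, GH females, and SI females. GH rats lived 3 to a cage with littermates of their sex and SI rats lived 1 to a cage, for 6 weeks after weaning on postnatal day 21, and all were 9 weeks old when they went through an elevated plus maze and were killed. The study picked the female samples for high RNA integrity and for a range of estradiol levels, and each library is a bulk tissue punch, in which fewer cells of a type and less RNA per cell cannot be told apart.

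A miRNA hairpin is cut by Drosha and Dicer into a short duplex, of which the guide strand usually stays in Argonaute while the opposite strand is degraded. The guide finds target mRNAs mainly through its seed, bases 2 to 8 from the 5′ end, so a read that starts 1 base earlier or later carries another seed. miR-29 guides are known to lower mRNAs of collagens and other matrix proteins and of the DNA methyltransferases Dnmt3a and Dnmt3b, and in the brain they rise as neurons and astrocytes mature.

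The sequences show how alike the members are, and all 5 members and both 29b opposite strands had a RefSeq entry (assembly GRCr8). Seeds are in capitals.
rno-miR-29a-3p: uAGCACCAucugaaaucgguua
rno-miR-29b-3p: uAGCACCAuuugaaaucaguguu
rno-miR-29c-3p: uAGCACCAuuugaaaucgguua
rno-miR-29a-5p: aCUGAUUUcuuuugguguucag
rno-miR-29c-5p: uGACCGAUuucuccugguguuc
The 3 guides share the seed AGCACCA. Counted from the 5′ end, miR-29a-3p and miR-29c-3p differ by the single substitution C10U, and miR-29b-3p departs from miR-29c-3p by G18A, U21G, and A22U. The 5p strands have seeds of their own, CUGAUUU in miR-29a-5p and GACCGAU in miR-29c-5p.

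In GRCr8 the family is encoded by 2 pairs of hairpins. Mir29a (chr4:60617955-60618042) and Mir29b1 (chr4:60618334-60618414) lie on the minus strand with 291 bases between them, and Mir29b2 (chr13:109098831-109098911) and Mir29c (chr13:109099359-109099446) lie on the plus strand with 447 bases between them. The hairpins of miR-29a and miR-29c are shown, with the mature strands in capitals, because both strands of each were counted and because the base before the 3p strand returns below.
Mir29a: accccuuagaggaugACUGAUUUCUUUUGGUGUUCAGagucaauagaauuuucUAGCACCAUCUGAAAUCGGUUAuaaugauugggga
Mir29c: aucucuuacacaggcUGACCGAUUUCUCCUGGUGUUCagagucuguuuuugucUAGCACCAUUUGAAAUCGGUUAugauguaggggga
The base before the 3p strand is C in all 4 hairpins. Mir29b1 and Mir29b2 give the same miR-29b-3p, so reads of this guide cannot be divided between chromosomes 4 and 13.

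The family was dominated by miR-29a-3p. The libraries held 3428930 to 11383055 miRNA reads each, and levels are given as reads per 1000000 miRNA reads (RPM) after TMM normalization, a scale that needs no correction for length in mature strands of 22 or 23 bases. Over 20 rats the median was 6641 for miR-29a-3p, 256 for miR-29b-3p, 178 for miR-29c-3p, 19.99 for miR-29c-5p, and 4.69 for miR-29a-5p, and miR-29a-3p ranked 30 of 617 by its mean. The opposite strands of miR-29b, which are no members, had medians of 35.1 (miR-29b-5p, from Mir29b2) and 0 (miR-29b-1-5p, with reads in 4 libraries). The order was nearly fixed within rats. miR-29a-3p exceeded miR-29b-3p in 20 of 20 rats, miR-29b-3p exceeded miR-29c-3p in 19, and miR-29c-5p exceeded miR-29a-5p in 20. The gap between miR-29b-3p and miR-29c-3p was small (median ratio 1.52), and the ranges of these neighbours overlapped in every group.

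A miR-29a-3p read with T read for C at position 10 would count as miR-29c-3p. At the other C positions of miR-29a-3p, T was read for C in 0.0198% to 0.0857% of 652300 reads without a 5′ change, whereas the reads of miR-29c-3p came to 3.07% of those of miR-29a-3p. Reads that also matched another miRNA made up at most 0.485% of the reads of any member.

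Some libraries stood apart from the rest. The SI female I16F had 5021 reads of miR-29a-3p, 21 of miR-29b-3p, and none listed for miR-29c-3p and miR-29a-5p, in 6255123 miRNA reads. Levels in I16F rose with the GC content of the miRNA by 0.81 on the log2 scale per 10 percentage points of GC, against -0.41 to 0.40 in the other libraries. The guides of the family are low in GC, at 34.8% to 40.9%, beside a median of 47.8% over the 454 miRNAs tested that had a sequence. Labels and file names give opposite sexes for the 2 SI libraries numbered I17, and the labels were followed here. Sequences read once in a library are not listed, so a count of 0 does not show that a strand was absent.

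The first question was whether isolation after weaning altered the family in either sex. In SI compared to GH rats, the 3 guides were lower in both sexes, by similar amounts when all 20 libraries were kept. Without I16F and the 2 I17 libraries, the differences in females were -0.63, -0.84, and -0.83 on the log2 scale. In males they were then -0.99, -0.94, and -1.50. Averaged over the sexes, the difference passed the test for all 3 guides. On leaving out 1 rat at a time, miR-29b-3p still passed in 7 of 20 fits and miR-29c-3p in 4.

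In males, the groups were separate for every guide. miR-29a-3p stood at 7175, 7917, 7995, 8307, and 8712 RPM in the GH males and at 2944, 3495, 3705, 4705, and 4752 in the SI males. The highest SI male lay below the lowest GH male, and the SI median was 46.3% of the GH median. miR-29b-3p stood at 257, 300, 307, 333, and 409 in GH males and at 92.9, 128, 146, 186, and 228 in SI males, again without overlap. miR-29c-3p stood at 174, 230, 250, 285, and 300 in GH males and at 64.1, 77.9, 81.8, 105, and 110 in SI males, and its SI median was the lowest of the 3 relative to GH, at 32.7%. All 5 SI males lay below all 5 GH males in 9.2% of the 500 miRNAs tested.

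In females, the guides spread more and the groups overlapped. miR-29a-3p stood at 6220, 7063, 7911, 12872, and 13179 in GH females and at 964, 3025, 4325, 5901, and 7715 in SI females. Of the 5 SI females, 4 lay below every GH female. miR-29b-3p stood at 206, 353, 389, 809, and 863 in GH females and at 4.03, 155, 206, 256, and 400 in SI females. miR-29c-3p stood at 178, 212, 262, 439, and 524 in GH females and at 91.1, 126, 177, and 268 in 4 SI females, and had no read in I16F. G16F and G17F were the highest GH females for all 3 guides, I16F was the lowest SI female for all of them, and I10F was the highest. The GC slopes of G16F and G17F (-0.41 and -0.27) were the lowest of the 20 libraries, and that of I16F (0.81) was the highest. In 1.6% of the miRNAs tested all SI females lay below all GH females, and no member was among them.

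**Figure D1:**
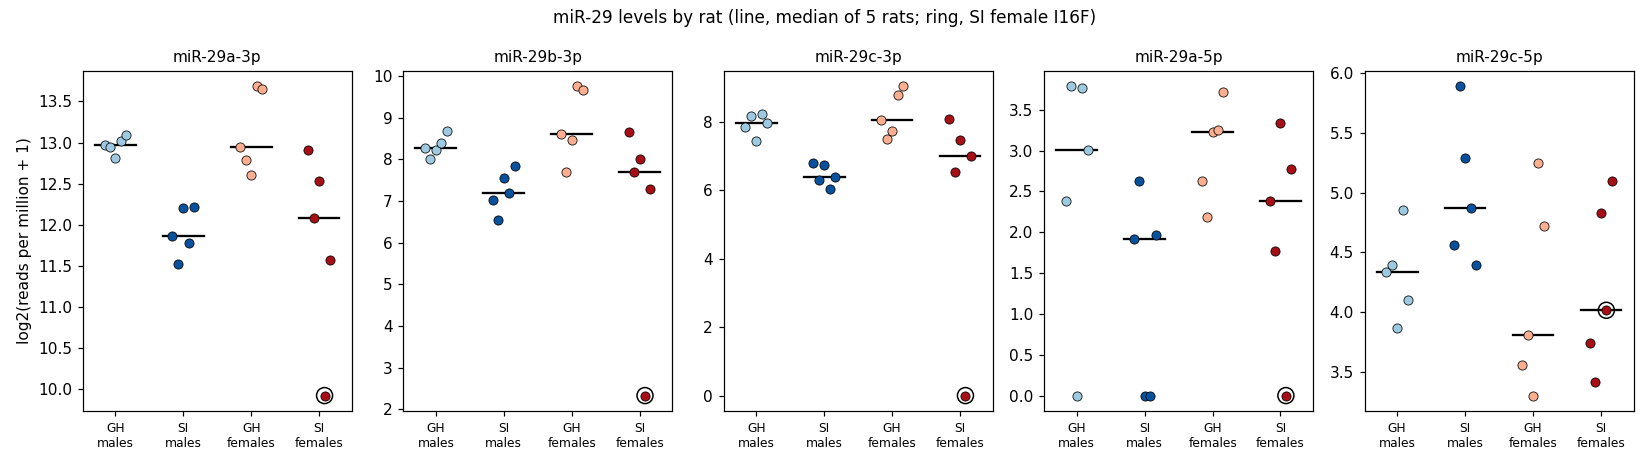
Level of each member in each of the 20 rats, as log2 of TMM-normalized RPM plus 1, by housing and sex, with the median of 5 rats as a line and the SI female I16F ringed. The SI males lie below the GH males for the 3 guides without overlap, miR-29c-5p is not lower in SI rats, and I16F lies at the bottom in 4 of the 5 panels.

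The log2 fold change of miR-29a-3p (SI compared to GH, edgeR quasi-likelihood F test) was -1.03 with a standard error (SE) of 0.34 in males and -1.11 with an SE of 0.34 in females. The Benjamini-Hochberg (BH) adjusted p over all 500 miRNAs was 0.087 in males and 0.084 in females, so neither sex passed the threshold of 0.05. For miR-29b-3p the log2 fold change was -1.04 (SE 0.57, edgeR BH adjusted p = 0.28) in males and -1.36 (SE 0.57, adjusted p = 0.16) in females. For miR-29c-3p it was -1.50 (SE 0.68, edgeR BH adjusted p = 0.19) in males and -1.28 (SE 0.68, adjusted p = 0.30) in females. In the same test 4% of miRNAs passed in males and 0.4% in females, and none of the 5 members did.

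Averaged over the sexes, the 3 guides fell. miR-29a-3p changed by -1.07 on the log2 scale (SE 0.24, edgeR BH adjusted p = 0.0058), with all 5 SI males and 4 of 5 SI females below every GH rat of their sex. miR-29b-3p changed by -1.20 (SE 0.41, edgeR BH adjusted p = 0.044) and miR-29c-3p by -1.39 (SE 0.48, adjusted p = 0.048). Lower and past the threshold were 3 of 5 members, beside 10.2% of all miRNAs tested. The median log2 fold change was -1.20 over the 5 members and -0.0046 over the 500 miRNAs.

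The averages kept their calls without I16F (-0.95, -1.05, and -1.24 for miR-29a-3p, miR-29b-3p, and miR-29c-3p; edgeR BH adjusted p = 0.00075, 0.0047, and 0.00067), where 11.2% of all miRNAs tested were lower and passed. In the 20 fits that each left out 1 rat, miR-29a-3p passed in 20, miR-29b-3p in 7, and miR-29c-3p in 4. Correction for GC content left miR-29c-3p at -1.03, where it no longer passed (edgeR BH adjusted p = 0.061), and the median of all miRNAs tested was then 0.19.

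The values within a sex moved with I16F, with the I17 libraries, and with the tool. The spread is estimated over all 20 libraries, and without I16F the 3 guides passed in males (edgeR BH adjusted p = 0.0032, 0.032, and 0.0019), as did 14.6% of all miRNAs tested. The difference in females then shrank to -0.83, -1.03, and -0.94 and did not pass (adjusted p = 0.13, 0.16, and 0.16, with 0.6% called). Without I16F and both I17 libraries, miR-29a-3p and miR-29c-3p passed in males (edgeR BH adjusted p = 0.0048 and 0.0045, 14.8% called), and the difference in females was -0.63, -0.84, and -0.83 (adjusted p = 0.28, 0.29, and 0.29). Correction for GC content within each library took miR-29a-3p in females from -1.11 to -0.62, where it passed (edgeR BH adjusted p = 0.044, 13.4% called). This correction also moved the median of all miRNAs tested in females, from -0.13 to 0.17. Without I10F, the highest SI female, miR-29a-3p was -1.38 in females and passed as well (edgeR BH adjusted p = 0.025). With DESeq2, miR-29a-3p passed in each sex (BH adjusted p = 0.021 in males, where 19.8% of miRNAs passed, and 0.018 in females, where 17.9% did).

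**Figure D2:**
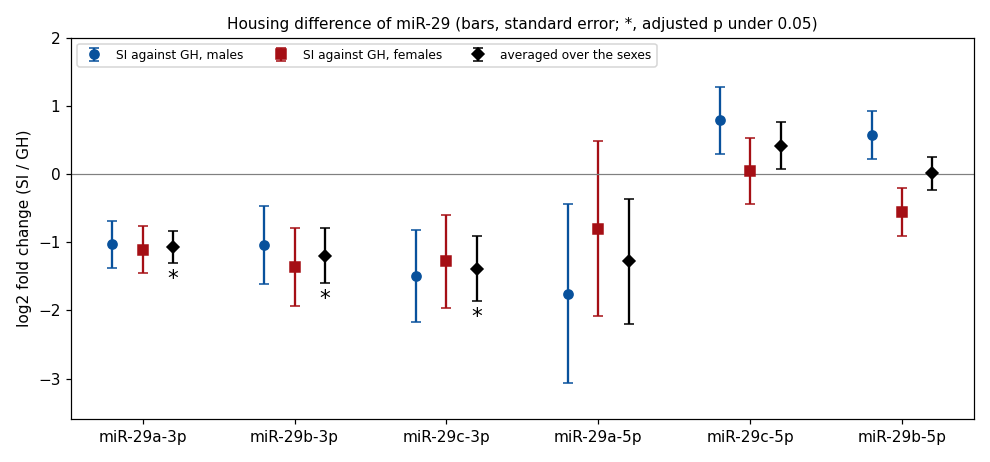
Log2 fold change of SI compared to GH rats in males, in females, and averaged over the sexes, for the 5 members and for miR-29b-5p, with the standard error from edgeR as bars and an asterisk where the BH adjusted p is under 0.05. The 3 guides lie between -1.50 and -1.03 in all comparisons and the asterisks stand at their averages over the sexes.

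The opposite strands passed the test in neither sex. miR-29a-5p, the rare partner of the most abundant guide, had 0, 21, 50, 58, and 105 reads in GH males and 0, 0, 13, 29, and 38 in SI males. Its log2 fold change was -1.76 (SE 1.32, edgeR BH adjusted p = 0.47) in males and -0.80 (SE 1.29, adjusted p = 0.75) in females. miR-29c-5p stood at 13.6, 16.2, 19.2, 19.97, and 28.0 RPM in GH males and at 20.01, 22.6, 28.2, 38.2, and 58.3 in SI males. All SI males lay above 4 of the 5 GH males, the groups overlapped at the highest GH male, and the log2 fold change was 0.79 (SE 0.49, edgeR BH adjusted p = 0.36). In females miR-29c-5p was at 8.85 to 36.9 in GH and at 9.66 to 33.3 in SI rats, with a log2 fold change of 0.05 (SE 0.49, edgeR BH adjusted p = 0.96). miR-29b-5p, which comes from the same chromosome 13 pair as miR-29c, had a log2 fold change of 0.57 (SE 0.35, edgeR BH adjusted p = 0.35) in males and -0.55 (SE 0.35, adjusted p = 0.41) in females. miR-29b-1-5p had at most 26 reads in a library and was not tested.

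Both strands of 1 hairpin are counted in the same library, so their ratio does not change with the normalization. GC bias of a library can still enter it, as miR-29c-3p has 36.4% GC and miR-29c-5p 50%. The SI male with the lowest ratio below, I17M, had the highest GC slope of the males (0.40). In the other SI males the slope was -0.16 to 0.01, and in GH males -0.18 to 0.11. For miR-29c this ratio, log2 of 3p reads plus 1 over 5p reads plus 1, was 3.42, 3.57, 3.65, 3.82, and 3.94 in GH males. In SI males it was 0.42, 1.18, 1.46, 2.02, and 2.29. Every SI male lay below every GH male, and the difference of the means was -2.21 (GH 3.68 ± 0.20, SI 1.47 ± 0.74, SD, n = 5 each; two-sided exact permutation p = 0.0079, as low as 5 against 5 can go; BH adjusted p = 0.032 over 4 tests). In males, then, the guide of miR-29c fell relative to its own opposite strand. It did so also with the I17 libraries exchanged, where the difference was -1.91 and the exact p again 0.0079. Strand ratios were not taken for hairpins outside the family. Whether the shift is particular to miR-29c was not tested.

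In females the ratio of miR-29c was 3.57, 3.76, 4.36, 4.56, and 4.58 in GH rats and 4.42, 3.22, 2.68, 1.92, and -6.32 in SI rats, the last being I16F without a 3p read. The difference of the means was -2.98 (exact permutation test, two-sided, p = 0.040, BH adjusted p = 0.079). Without I16F it was -1.10, with an exact p of 0.079 among 9 females, and without the I17 libraries as well it was -0.72 (exact p = 0.18), so the size in females rested on I16F. For miR-29a the ratio did not separate the groups. It differed by 1.04 in males (exact permutation test, two-sided, p = 0.56) and by 0.12 in females (exact p = 0.86), and the rats without a miR-29a-5p read had the highest ratios.

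**Figure D3:**
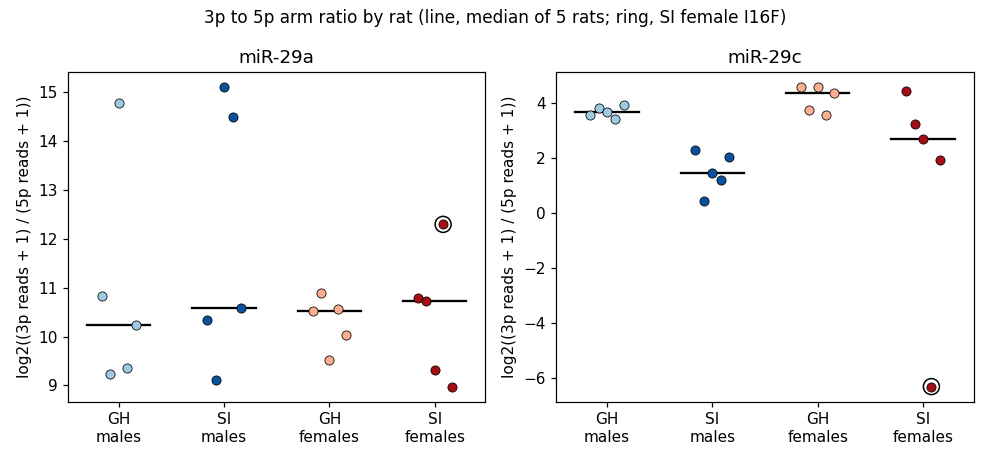
Ratio of 3p to 5p reads of miR-29a and miR-29c in each rat, as log2 with 1 read added to both, with the median of 5 rats as a line and the SI female I16F ringed. For miR-29c the 5 SI males (0.42 to 2.29) lie below the 5 GH males (3.42 to 3.94), and for miR-29a the groups overlap.

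miR-29a-3p supplied 90.6% to 94.8% of the reads of the 3 guides in the 19 rats other than I16F, miR-29b-3p 2.77% to 5.96%, and miR-29c-3p 1.62% to 3.83%. In I16F the shares were 99.6%, 0.417%, and 0. In males the share of miR-29a-3p was 93.4% ± 0.43 in GH and 94.2% ± 0.27 in SI rats (SD, n = 5 each; exact permutation test, two-sided, p = 0.0079, BH adjusted p = 0.048 over 6 tests), and the groups did not overlap. With the I17 libraries exchanged this difference shrank from 0.769 to 0.164 percentage points (exact p = 0.81). The share of miR-29c-3p was 2.87% ± 0.48 in GH and 2.15% ± 0.50 in SI males (exact permutation test, two-sided, p = 0.056, BH adjusted p = 0.17). In females no share differed beyond the spread (lowest BH adjusted p = 0.47, exact permutation tests).

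The guides differed from each other in their ends. The forms below are those that the description turns on, as read (T for U), with bases 2 to 8 in capitals.
miR-29a-3p, reference form: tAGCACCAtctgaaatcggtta
miR-29a-3p, 1 base shorter at the 3′ end: tAGCACCAtctgaaatcggtt
miR-29a-3p, 1 base longer at the 5′ end: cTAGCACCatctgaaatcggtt
miR-29b-3p, 3 bases shorter at the 3′ end: tAGCACCAtttgaaatcagt
miR-29b-3p, 1 base longer at the 5′ end: cTAGCACCatttgaaatcagt
miR-29c-3p, A added at the 3′ end: tAGCACCAtttgaaatcggttaa
The reference form made up 21.4% of all miR-29a-3p reads, 5.05% of miR-29b-3p reads, and 18.1% of miR-29c-3p reads. The most counted form of miR-29a-3p lacked the last base (269383 of 799069 reads, 33.7%), and so did that of miR-29c-3p (35.2% of 24549 reads), whereas that of miR-29b-3p lacked the last 3 bases (41.8% of 37326 reads).

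Reads that began with the C before the 3p strand move the seed from AGCACCA to TAGCACC. This C-extended 5′ end was carried by a median of 17.7% of miR-29a-3p reads per rat (13.5% to 20.5%, 20 rats) and by 21.5% of miR-29b-3p reads (9.97% to 33.4%, 19 rats with at least 50 reads). For miR-29c-3p it was 1.05% (0 to 5.34%, 19 rats). miR-29c-3p had the lower share in 19 of 19 rats compared with either of the others, although the preceding base is the same in all 4 hairpins. miR-29b-3p exceeded miR-29a-3p in 17 of 19 rats. An added A at the 3′ end was most frequent in miR-29c-3p, with a median of 17.3% of reads beside 8.69% for miR-29a-3p and 8.08% for miR-29b-3p, and it was higher in miR-29c-3p than in either of them in 19 of 19 rats. Loss of 3 bases at the 3′ end was found in a median of 66.5% of miR-29b-3p reads, 10.2% of miR-29a-3p reads, and 14.6% of miR-29c-3p reads.

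**Figure D4:**
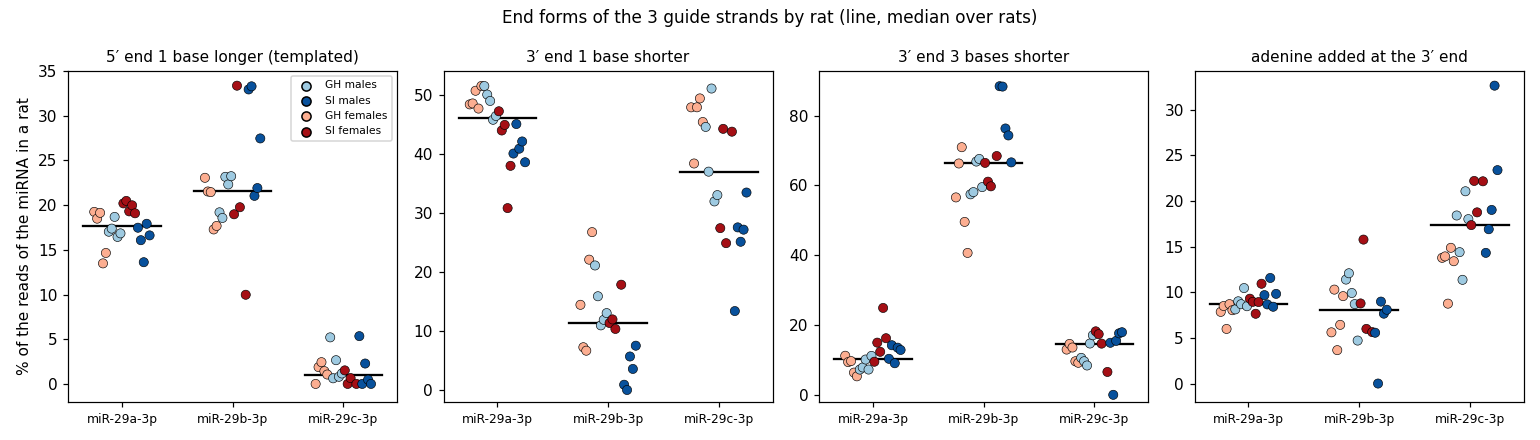
Share of the reads of each guide with a given end form in each rat (percent, 20 rats for miR-29a-3p and 19 for the others), colored by group, with the median over rats as a line. The 5′ extension is near 0 in miR-29c-3p, loss of 3 bases at the 3′ end prevails in miR-29b-3p, and added adenine is highest in miR-29c-3p.

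The next question was whether housing shifted these forms. Of 56 exact permutation tests of isomiR classes within members, 6 had an unadjusted p under 0.05 and none passed after BH adjustment (lowest adjusted p = 0.36). The largest of the 6 differences was in the trimmed 3′ ends of miR-29c-3p in males, at 62.8% ± 3.65 in GH and 52.4% ± 9.96 in SI rats (SD, n = 5 each; exact permutation p = 0.032). When loss of exactly 1 base was taken by itself, a split made after the values had been seen and therefore not tested, miR-29a-3p differed by housing in both sexes. Such reads were 45.7% to 51.5% of miR-29a-3p in GH males and 38.6% to 45.0% in SI males, and 47.6% to 51.5% in GH females and 30.8% to 47.2% in SI females. The groups were separate in each sex. Among the 269 miRNAs with at least 50 reads in every rat, this share was lower in all SI than in all GH rats for 1.86% in males and 1.12% in females. It was higher in all SI rats for 13 in males and 5 in females. The group median fell further than for miR-29a-3p in 11 of the 269 in males and 36 in females. For miR-29b-3p the 1-base loss was found in 10.9% to 21.1% of reads in GH males and in 0 to 7.50% in SI males, and in females the groups overlapped. This guide had 21 reads in I16F and is not among the 269, and its difference was likewise not tested.

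As single isomiRs, 114 forms of the 5 members were tested among 10290. In SI compared to GH males 103 of the 114 were lower, 30 had an unadjusted edgeR p under 0.05 (9.11% of all isomiRs did), and none passed after BH adjustment, where 0.00972% of all isomiRs did. In females 103 were lower, 36 had an unadjusted edgeR p under 0.05 (9.22% of all isomiRs), and again none passed, as for all isomiRs (0% called). Forms of the single guide miR-29a-3p made up 76 of the 114, 23 of the 30 in males, and 32 of the 36 in females. The median log2 fold change over all isomiRs tested was -0.05 in males and -0.12 in females. The most counted form of miR-29a-3p, 1 base shorter at the 3′ end, changed by -1.46 (SE 0.48) in males and -1.57 (SE 0.48) in females, and its reference form by -0.93 (SE 0.46) and -1.41 (SE 0.47). The C-extended form of miR-29a-3p shown above changed by -1.41 (SE 0.46) in males and -1.16 (SE 0.46) in females. For miR-29c-3p the form without the last base changed by -2.32 (SE 0.76) in males and -2.01 (SE 0.75) in females. The BH adjusted p of these forms lay between 0.31 and 0.59. In males 3 forms of the members passed with only the male libraries in the fit, beside 0.379% of all isomiRs, and 2 passed without I16F, beside 0.583%.

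The 5p strands were read with variable starts. Of the reads of miR-29c-5p, 14.4% were the reference form, and a median of 36.0% per rat lacked the first base and 18.2% the first 2 (20 rats), which changes the seed. No read of miR-29a-5p was the reference form in the 7 rats with at least 50 reads, and a median of 58.6% lacked the first 2 bases. With so few reads, the ends of the 5p strands were not compared further between groups.

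The sexes did not differ detectably in any member. Females compared to males gave -0.03 to 0.71 in GH rats (edgeR BH adjusted p = 0.996 for all 5 members, 0% of miRNAs called) and -0.77 to 0.99 in SI rats (adjusted p = 0.79 to 0.92, 0% called) on the log2 scale. The interaction of housing and sex lay between -0.74 and 0.95 for the members (edgeR BH adjusted p = 0.87 to 0.96), and 0.4% of the miRNAs passed it. For miR-29a-3p it was -0.07 with an SE of 0.48.

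Across the 20 rats, the miRNAs whose log2 normalized counts ran most like those of miR-29a-3p were miR-99a-5p (Pearson r = 0.97), miR-30e-5p (0.96), miR-186-5p (0.96), miR-126a-3p (0.95), and miR-376b-3p (0.95). All points share library depth and GC bias, and I16F is extreme in most of them. miR-29b-3p followed at rank 11 (r = 0.94) and miR-29c-3p at rank 34 (r = 0.88) of the miRNAs tested. Without I16F, miR-29b-3p and miR-29c-3p ranked 2 and 3 (r = 0.93 and 0.92), after miR-99a-5p (0.94). For the opposite strands r was 0.55 for miR-29a-5p (0.38 without I16F) and -0.09 for miR-29c-5p (-0.26 without I16F).

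Markers of the cell types in the punch were examined beside the family. Of 23 marker miRNAs, 21 were tested. The neuronal markers (such as miR-124-3p) summed to 56383 to 115487 RPM in the 20 libraries. The mural markers miR-143-3p and miR-145-5p of vessel walls summed to 9402 to 14298 in GH males and 4050 to 6530 in SI males, and to 9930 to 19740 in GH females and 2050 to 13774 in SI females. The endothelial strands miR-126a-3p and miR-126a-5p summed to 880 to 1231 in GH males and 259 to 698 in SI males, and to 947 to 2234 in GH females and 79.9 to 1096 in SI females. In males both sums were lower in every SI than in every GH rat, as the guides of the family were. Within each sum the log2 fold changes in males were unequal. They were -1.15 for miR-143-3p (edgeR BH adjusted p = 0.045) and -0.23 for miR-145-5p (adjusted p = 0.84). For miR-126a-3p and miR-126a-5p they were -0.96 and -0.32 (adjusted p = 0.13 and 0.89). In females the values, in the same order, were -0.83, -1.02, -1.25, and -0.93, and none passed. The part of these markers in the result was not tested. Averaged over the sexes, miR-143-3p (-0.99), miR-126a-3p (-1.11), and the oligodendrocyte marker miR-338-3p (-1.74) fell, while the neuronal miR-129-5p (0.46) and the erythrocyte marker miR-486 (0.92) rose (edgeR BH adjusted p from 0.0039 to 0.040). The other 16 markers tested did not pass. Of all 500 miRNAs tested, 88 passed in the same comparison, 51 lower and 37 higher in SI rats. Within a list the values went both ways, as with the neuronal miR-124-3p (-0.41) and miR-138-5p (-0.25) and the oligodendrocyte miR-219a-2-3p (0.30). Beside miR-486, the erythrocyte list held miR-451-5p (0.09) and miR-144-3p (1.03), which did not pass (edgeR BH adjusted p = 0.97 and 0.64). Both were higher in SI than in GH males, but lower in SI than in GH females (-0.54 and -2.14). Erythrocyte markers summed to 1005 to 1358 in GH and 1490 to 3117 in SI males, without overlap, and to 792 to 1456 and 1405 to 4036 in females. The sums over oligodendrocytes (2527 to 6828), microglia and leukocytes (428 to 1275), and choroid plexus and epithelium (843 to 18201) overlapped between the groups in both sexes.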

How the data were processed

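Small RNA libraries of the adBNST, each made from 215 ng of total RNA with 22 PCR cycles, were sequenced in 20 rats. The authors trimmed adapters with cutadapt, used seqbuster to align reads to miRBase, and deposited the counts of reads of every sequence in each library, not normalized, with its miRNA, mismatch, added bases, and end changes. FastQC and STAR are also in the submitters' processing notes. The count files give 1 hairpin for each mature strand.

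Counts were summed per miRNA and per isomiR, and those with at least 10 counts in at least 5 libraries were tested with edgeR 4.0.16 (R 4.3.3), using TMM factors, 1 model of 4 groups over all libraries, and quasi-likelihood F tests. P-values were adjusted by the Benjamini-Hochberg method over all features of a contrast and held against 0.05, and the SE is the fold change divided by the root of F. Shares and strand ratios, 1 value per rat, were compared with exact permutation tests (scipy 1.17.1), two-sided, on the difference of group means, with adjustment within each family of tests. A member with under 50 reads in a rat gave no share. The rats came from separate labels. GH rats lived 3 to a cage with littermates, so some of the GH rats of a sex may have shared a cage and litter. Which rats did so is not given in the sources used here, and all tests without the block treat the rats as independent. Reads carry no molecular identifiers, so amplification error is not separated from counts.

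Named were the 5 members, other strands of miR-29a, b, or c, the 5 miRNAs most correlated with miR-29a-3p, marker miRNAs, and, of isomiRs, the reference and 3 most counted other forms of each member, with any past the threshold. Members and lists were chosen with earlier results of these data known. The alternatives were DESeq2 1.42.0 (size factors, and its Wald test without the count filter), other count filters, fits of only the compared groups, leaving out each rat, the I17 libraries exchanged, reads of a single miRNA or without a mismatch, and the animal number as a block. Added after the data were seen were a loess correction for GC content and fits without I16F and both I17 libraries. The fitting steps were tested on simulated data.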

Additional observations from a re-analysis of the deposited data

Results flagged for a closer look

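Among 40 groups of 5 rats, over member levels, shares, and strand ratios, 7 times a rat lay so far from its group that its gap to the next rat exceeded Dixon's critical share of the group's range, which chance gives in about 1 of 20 groups. Of these, 5 concern the SI female I16F, and the gap divided by the range was 0.792 for the level of miR-29b-3p, 0.855 for that of miR-29c-3p, 0.742 for the share of miR-29a-3p (99.6%, next 93.6%), 0.832 for the share of miR-29b-3p (0.417%, next 4.04%), and 0.767 for the strand ratio of miR-29c (-6.32, next 1.92). The other two concern the GH male G19M, which had no listed read of miR-29a-5p, with 0.753 for the level of this strand and 0.713 for the strand ratio of miR-29a (14.8, next 10.8).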

How the results depend on the processing

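Under all alternatives the 3 guides were lower in SI rats. In males miR-29a-3p passed the threshold with DESeq2 (-1.05), with 10 counts required in every library (-1.04), with only males fitted (-1.01), with GC correction (-0.79), and without I16F and the I17 libraries (-0.99). miR-29b-3p passed with only males fitted (-1.02), and miR-29c-3p with only males (-1.47) and without those libraries (-1.50). In females miR-29a-3p passed with DESeq2 (-1.13), 10 counts in every library (-1.18), GC correction (-0.62), and without I10F (-1.38). Averaged over the sexes, miR-29c-3p no longer passed with the I17 libraries exchanged (-1.37) or with GC correction (-1.03), which shifted the median of all miRNAs to 0.19. Leaving out each rat gave -1.11 to -0.95, -1.22 to -0.90, and -1.62 to -1.42 for miR-29a-3p, miR-29b-3p, and miR-29c-3p in males, -1.38 to -0.83 for miR-29a-3p in females, and over both sexes -1.40 to -1.05 for miR-29b-3p (7 of 20 fits passed) and -1.61 to -1.24 for miR-29c-3p (4 of 20), while miR-29a-3p passed in all 20. Members' isomiRs past the threshold in males were 3 with only males fitted (39 of 10288 isomiRs overall) and 0 to 2 on leaving out a rat (60 of 10290 overall without I16F, which gave the 2). The share of miR-29a-3p in males differed by 0.164 with the I17 libraries exchanged. That of miR-29c-3p in males differed by -0.819 without mismatched reads (exact p = 0.032) and by -0.884 to -0.589 on leaving out a rat, and that of miR-29b-3p in females by -1.68 to -0.348. The strand ratio of miR-29c in females differed by -0.723 without I16F and the I17 libraries, by -2.47 with GC correction, and by -3.79 to -1.10 on leaving out a rat. For shares and ratios the unadjusted exact p was held against the threshold. With 10 counts required in every library miR-29c-3p and miR-29a-5p were not tested, and DESeq2 gave miR-29a-5p no adjusted p. The cause of these changes was not tested.

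In 5 pairs of GH and SI rats of a sex that share an animal number, deviations from the group means had correlations of -0.30 to 0.09. These values cannot show whether such rats shared a litter or a batch. With the replicate block among these rats, the guides averaged over the sexes gave -1.54, -1.996, and -2.34 (edgeR adjusted p = 0.18, 0.27, and 0.34), and -1.43, -1.67, and -1.94 in the same rats with no block, and none passed in either fit.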
